A study of Mus musculus with 46 samples.

Results

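Messenger RNA of 6 GABA receptor genes was followed in the nucleus accumbens of DBA/2J and C57BL/6J mice that had carried a nicotine or a saline minipump. The genes were Gabra2, Gabra3, Gabra5, Gabrb2 and Gabrg3, which encode subunits of the GABA-A receptor, and Gabbr1, which encodes a subunit of the GABA-B receptor. They were found by symbol and make up 6 of the 25801 genes in the authors' comparison table, with 1 array feature each. A value for every array was held for 5 of them, among 16253 such genes, and all 5 lay above the filter on dim features that left 9596 genes for testing. For Gabra2 no value per array was used here, and this gene was read only through the S-score, a signed and standardised difference that the authors computed for each nicotine mouse.

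The series comprises 46 Affymetrix MTA 1.0 arrays, 1 for each male mouse, in 8 groups that differ by strain, drug and pump removal. No ages and no transgenes are named in the labels. The DBA/2J withdrawal groups held 5 nicotine mice and 6 saline mice, and the DBA/2J chronic groups held 6 nicotine mice and 6 saline mice. The C57BL/6J withdrawal groups held 6 nicotine mice and 6 saline mice, and the C57BL/6J chronic groups held 5 nicotine mice and 6 saline mice. Every mouse carried a subcutaneous osmotic pump that released nicotine at 24 mg per kg per day or saline alone over 14 days. In the withdrawal groups the pump was taken out 24 h before the tissue was collected, and in the chronic groups it stayed in place. Saline mice of the withdrawal groups went through the same removal, so that nicotine and saline were compared at equal surgery. Each array correlated with the mean of its group at r from 0.993 to 0.998, and no pair of arrays held identical values. All 14 striatal projection neuron markers with values per array lay above the middle of the array features, among them Drd2 and Adora2a, while the cerebellar granule cell markers Gabra6 and Cbln3 lay below it and Cbln1 above it. All 9 cortical excitatory neuron markers with values per array also lay above it.

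GABA is the main inhibitory transmitter of the brain, and in the accumbens most neurons are themselves GABAergic spiny projection neurons. The GABA-A receptor is a ligand-gated chloride channel built from alpha, beta and usually gamma subunits, and its alpha subunit sets where the receptor sits and which drugs act on it. The GABA-B receptor couples to G proteins. Its GABBR1 subunit binds GABA and its GABBR2 subunit activates the G protein, which opens potassium channels and lowers transmitter release. Nicotine acts on acetylcholine receptors carried by GABAergic neurons among other cells of the reward circuit. The C57BL/6J strain is known to carry a small deletion in an intron of Gabra2 that lowers the message and protein of this gene in brain.

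The GABA-A members lie in several clusters of receptor genes, while Gabbr1 is the only listed GABA receptor gene on its chromosome. By the authors' coordinates Gabra5 occupies 57407669 to 57510059 of chromosome 7 (110 probes), next to Gabrg3 at 56716465 to 57387188 of the same chromosome (170 probes). Gabrb2 occupies 42419757 to 42632591 of chromosome 11 (217 probes), Gabra2 70961057 to 71095849 of chromosome 5 (140 probes), Gabra3 72432676 to 72656848 of chromosome X (152 probes) and Gabbr1 37045966 to 37075067 of chromosome 17 (423 probes). The build is not named in that table, but 98.7% of 23608 genes compared, and 6 of 6 members, overlapped the gene of the same symbol in the GRCm38.p6 annotation. Each feature summarised probes along a whole gene, so that splice forms could not be told apart.

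The reference promoters of the 3 members that differed between strains are shown because these are the genes whose levels the results turn on. The windows run from 250 bases before to 50 bases after the annotated start (RefSeq, GRCm38.p6, gene strand), and all 6 members matched. The Gabra5 window is chr7:57510010-57510309 on the minus strand, the Gabbr1 window is chr17:37045716-37046015 on the plus strand, and the Gabrb2 window is chr11:42420190-42420489 on the plus strand, the one of 3 annotated windows nearest to the array feature. Capitals mark matches on either strand to the GC box GGGCGG, the TATA box TATAAA and the core TGACG of the cAMP response element.
Gabra5 promoter: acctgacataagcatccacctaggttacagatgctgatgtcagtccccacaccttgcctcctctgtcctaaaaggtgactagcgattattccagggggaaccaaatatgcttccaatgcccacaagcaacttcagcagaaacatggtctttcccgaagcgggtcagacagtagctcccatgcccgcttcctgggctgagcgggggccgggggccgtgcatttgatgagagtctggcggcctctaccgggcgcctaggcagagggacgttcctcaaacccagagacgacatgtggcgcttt
Gabbr1 promoter: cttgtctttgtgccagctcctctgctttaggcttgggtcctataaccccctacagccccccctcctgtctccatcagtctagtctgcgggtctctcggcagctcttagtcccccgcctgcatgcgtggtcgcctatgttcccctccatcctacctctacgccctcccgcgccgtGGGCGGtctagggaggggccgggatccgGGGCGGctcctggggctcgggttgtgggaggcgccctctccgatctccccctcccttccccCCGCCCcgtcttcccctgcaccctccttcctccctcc
Gabrb2 promoter: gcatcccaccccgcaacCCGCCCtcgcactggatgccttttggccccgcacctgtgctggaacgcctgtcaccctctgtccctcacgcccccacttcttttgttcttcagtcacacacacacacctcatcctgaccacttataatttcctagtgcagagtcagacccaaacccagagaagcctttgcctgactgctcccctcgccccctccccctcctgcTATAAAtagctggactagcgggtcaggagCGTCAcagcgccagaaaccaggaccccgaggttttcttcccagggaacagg

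The Gabra5 window held none of these motifs. The Gabbr1 window held 3 GC boxes, and the Gabrb2 window held 1 GC box, 1 TATA box and 1 TGACG core. Among 32851 windows of equal length, 35.7% held a GC box, 13.6% a TATA box and 20.8% a TGACG core. The full element TGACGTCA, which contains the core, was in 1.79% of windows and in none of the 6 members' windows. The GC content was 56.7% for Gabra5, 67.3% for Gabbr1 and 59% for Gabrb2, against a median of 52.7% over all windows. A match describes these letters only, and the reference is a C57BL/6J genome, so DBA/2J sequence was not read here.

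The clearest pattern among the receptor genes was a difference between the strains. In saline mice Gabra5 and Gabbr1 were lower in DBA/2J than in C57BL/6J, and Gabrb2 was higher, while Gabra3 and Gabrg3 did not pass the test. The same 3 genes differed in the same direction between DBA/2J and C57BL/6J mice given nicotine, which are other animals. No receptor gene passed the test for an effect of nicotine, of its withdrawal or of pump removal in either strain. Values are given on the authors' log2 scale, on which a difference of 1 is a factor of 2 in signal.

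**Figure D1:**
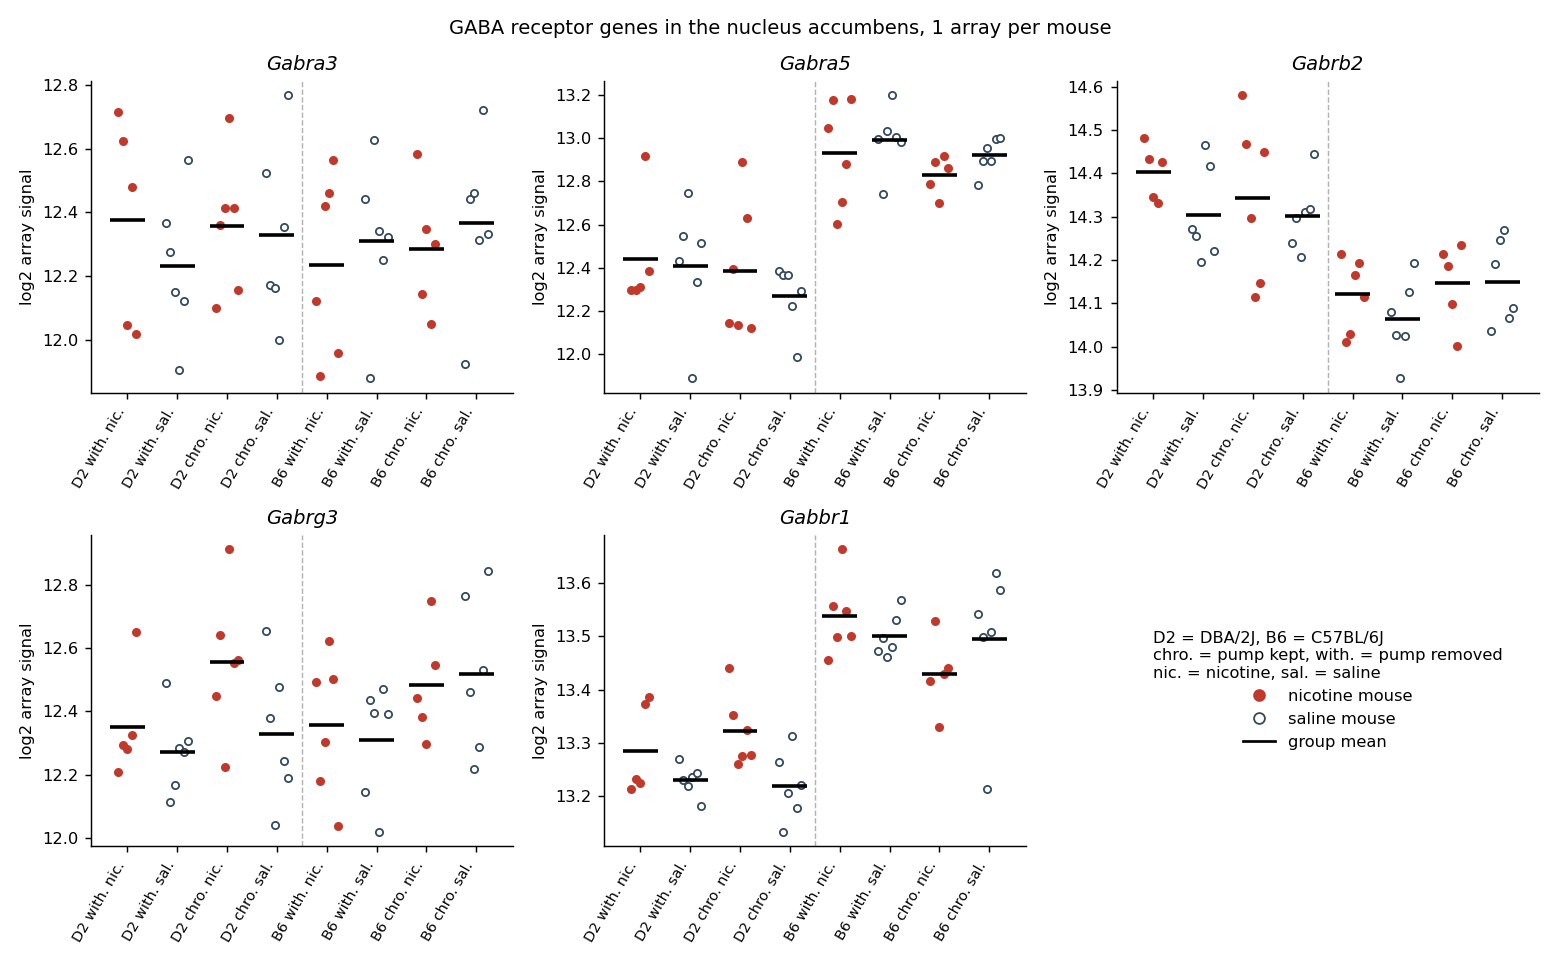
Each point is 1 mouse and each bar a group mean on the authors' log2 scale, with DBA/2J groups left and C57BL/6J groups right of the dashed line. For Gabra5 and Gabbr1 the DBA/2J means lie below all C57BL/6J means and for Gabrb2 above them, while nicotine and saline groups of 1 strain overlap in every panel.

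Gabra5 encodes the alpha5 subunit, known from receptors outside synapses that carry tonic inhibition. In DBA/2J saline mice its log2 value was 11.89 at the lowest, 12.37 at the median and 12.75 at the highest, against 12.74, 12.99 and 13.20 in C57BL/6J saline mice (n = 12 each). All 12 DBA/2J saline mice lay below the C57BL/6J median, and the ranges met only at their edges. The difference was -0.62 (SE 0.09), a DBA/2J signal 0.652 times that of C57BL/6J, with a limma adjusted p of 1.4e-07. In nicotine mice the lowest, median and highest values were 12.12, 12.31 and 12.92 in DBA/2J, against 12.60, 12.88 and 13.18 in C57BL/6J (n = 11 each). Of the DBA/2J nicotine mice 9 lay below the C57BL/6J median, and the remaining 2, at 12.92 and 12.89, lay just above it. The difference there was -0.47 (SE 0.09, limma adjusted p = 6.6e-05).

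Gabbr1 encodes the GABA-binding subunit of the GABA-B receptor and was the member with the least spread, with a standard deviation within groups of 0.079. In DBA/2J saline mice the lowest, median and highest log2 values were 13.13, 13.23 and 13.31, against 13.21, 13.50 and 13.62 in C57BL/6J saline mice. All 12 DBA/2J mice lay below the C57BL/6J median. The overlap came from 1 C57BL/6J chronic saline mouse at 13.21, and the other C57BL/6J saline mice lay above every DBA/2J saline mouse. The difference was -0.27 (SE 0.03, limma adjusted p = 1.1e-08), or 0.827 times the C57BL/6J signal. In nicotine mice the values were 13.21, 13.28 and 13.44 in DBA/2J, against 13.33, 13.50 and 13.66 in C57BL/6J, a difference of -0.18 (SE 0.04, limma adjusted p = 1.1e-04). All 11 DBA/2J nicotine mice lay below the C57BL/6J median.

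Gabrb2 encodes the beta2 subunit, a part of the most common GABA-A receptors of the brain. It was the 1 member with higher values in DBA/2J in both drug conditions that passed the test. The lowest, median and highest log2 values were 14.20, 14.28 and 14.47 in DBA/2J saline mice, against 13.93, 14.08 and 14.27 in C57BL/6J saline mice. All 12 DBA/2J mice lay above the C57BL/6J median, with some overlap of the ranges. The difference was 0.20 (SE 0.04, limma adjusted p = 5.6e-04), a factor of 1.15. Under nicotine the values were 14.11, 14.43 and 14.58 in DBA/2J, against 14.00, 14.17 and 14.23 in C57BL/6J, a difference of 0.24 (SE 0.05, limma adjusted p = 9.6e-05), and 9 of 11 DBA/2J mice lay above the C57BL/6J median.

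Gabra3, on the X chromosome, encodes the alpha3 subunit, and Gabrg3 encodes gamma3, a minor gamma subunit. The log2 values of Gabra3 ran over 11.91, 12.23 and 12.77 in DBA/2J saline mice, against 11.88, 12.34 and 12.72 in C57BL/6J saline mice, and those of Gabrg3 over 12.04, 12.28 and 12.65 in DBA/2J, against 12.02, 12.42 and 12.84 in C57BL/6J. For both genes the ranges of the strains overlapped almost wholly. The Gabra3 difference was -0.06 (95% interval -0.26 to 0.15, limma adjusted p = 0.70) and the Gabrg3 difference -0.11 (interval -0.27 to 0.05, limma adjusted p = 0.29). Among nicotine mice the differences were 0.11 (interval -0.11 to 0.32, limma adjusted p = 0.50) for Gabra3 and 0.03 (interval -0.13 to 0.20, limma adjusted p = 0.80) for Gabrg3. Gabra3 had the widest spread of the members, with a standard deviation within groups of 0.26, against a median of 0.12 over all tested genes.

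In the saline strain contrast 3 of the 5 tested members thus passed limma's test (lmFit and eBayes, adjusted over 9596 genes), where 31.8% of all genes passed, 19.4% as lower and 12.4% as higher in DBA/2J. In the nicotine strain contrast 3 of 5 passed, where 26.2% of all genes passed, 10.8% as lower and 15.4% as higher. The 3 members were called in 1 direction in both contrasts, as were 17.6% of all genes. No member separated the strains fully, a pattern that 4.66% of genes showed among saline mice and 4.74% among nicotine mice. Strain differences were thus common on these arrays. Whether sequence differences between the strains under the probes affected any of these signals was not tested.

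Taken by pump condition, the Gabra5 difference among saline mice was -0.58 (SE 0.12) in withdrawal groups and -0.65 (SE 0.12) in chronic groups, and that of Gabbr1 was -0.27 (SE 0.05) in withdrawal groups and -0.28 (SE 0.05) in chronic groups. All 4 values passed limma's test, with adjusted p from 2.3e-05 to 3.4e-04. The share of all genes that passed was not counted by pump condition. Over both conditions it was 31.8% in saline mice and 26.2% in nicotine mice. The Gabrb2 difference was 0.24 (SE 0.06, limma adjusted p = 0.0047) in withdrawal saline groups and 0.15 (SE 0.06, limma adjusted p = 0.086) in chronic saline groups. Among nicotine mice Gabra5 and Gabrb2 passed in both pump conditions. Gabbr1 passed in withdrawal nicotine groups, with -0.25 (SE 0.05, limma adjusted p = 2.2e-04), and missed the threshold in chronic nicotine groups, with -0.11 (SE 0.05, limma adjusted p = 0.15). The change of the strain difference with nicotine was tested directly and was not called for any of the 5 members (limma adjusted p from 0.42 to 0.81) or any other gene. Its largest member value was that of Gabra3, at 0.16 (SE 0.15).

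The order of the 8 group means comes from the same arrays and is given as a description only. For Gabra5 and Gabbr1 the 4 DBA/2J groups held the 4 lowest means, and for Gabrb2 they held the 4 highest. The share of all genes with such an order was not counted. The step between the strains was 0.39 for Gabra5, 0.11 for Gabbr1 and 0.15 for Gabrb2, each larger than the larger standard deviation of the neighbouring groups. Within a strain, neighbours in the order differed by less than that standard deviation for these 3 genes, except the C57BL/6J chronic nicotine and saline groups for Gabra5, at 12.83 ± 0.09 in nicotine mice and 12.92 ± 0.08 in saline mice (SD, n = 5 and n = 6). For Gabra3 and Gabrg3 the strains were mixed in the order, and no neighbouring groups differed beyond their spread.

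Lists of other genes of GABA signalling gave the setting for these differences. Of 59 such genes in 6 lists, 35 had values per array and 29 were tested, the 5 members included. In saline mice 9 of the 29 fell and 1 rose in DBA/2J relative to C57BL/6J, with a median difference of -0.08, where the median over all tested genes was -0.02. Among nicotine mice 5 were lower and 2 higher in DBA/2J than in C57BL/6J, with a median of -0.04, where all genes had a median of 0.02. The counts stand beside the 31.8% and 26.2% of all genes that passed.

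Of the scaffold and trafficking proteins of the inhibitory synapse 5 of 14 fell in DBA/2J saline mice and none rose, beside 19.4% of all genes lower and 12.4% higher there. They were Insyn1 (-0.31), which links inhibitory scaffolds to dystrophin, Nlgn2 (-0.21), the neuroligin of inhibitory synapses, Trak1 (-0.18), a kinesin adaptor, Plcl2 (-0.16), a phospholipase C relative that binds GABA-A receptors, and Ubqln1 (-0.15), which protects their subunits from degradation. Their limma adjusted p lay between 1.5e-04 and 0.020. In nicotine mice Insyn1 (-0.18, limma adjusted p = 0.039) and Trak1 (-0.15, limma adjusted p = 0.0086) fell. Shisa7, an auxiliary protein of the GABA-A receptor, rose by 0.27 (SE 0.08, limma adjusted p = 0.0060) in nicotine mice, while in saline mice its difference was 0.07 and not called (limma adjusted p = 0.48). Slc12a2, the chloride importer NKCC1, fell by 0.20 on the log2 scale in nicotine mice (limma adjusted p = 0.041), while in saline mice its difference was -0.10 and not called (limma adjusted p = 0.29). Besides Gabbr1, the 3 tested genes of the GABA-B list did not pass in either contrast, nor did the 1 tested potassium channel and the 2 tested genes of GABA breakdown.

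**Figure D2:**
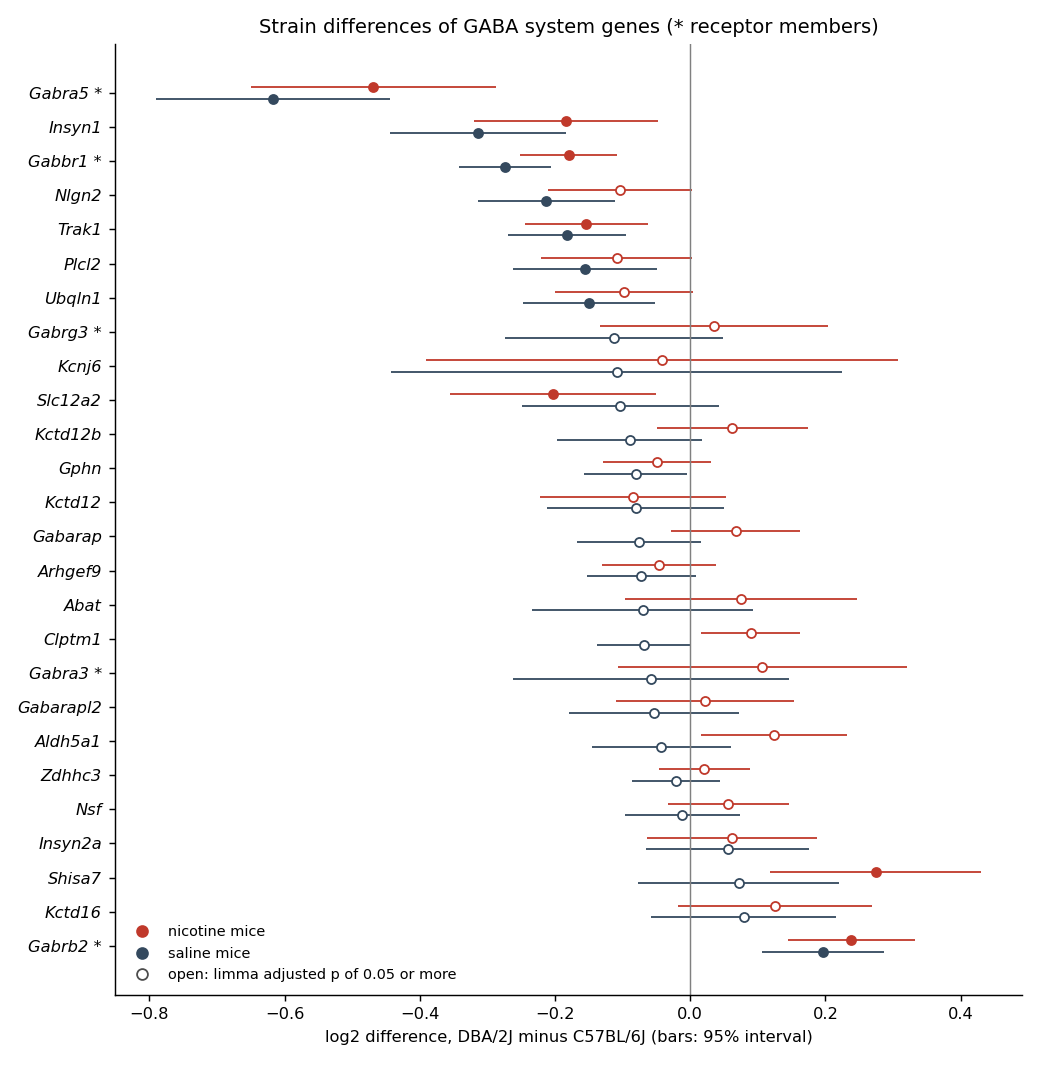
Points are log2 differences of the 5 members (starred) and other tested GABA genes, DBA/2J minus C57BL/6J, with 95% intervals, for nicotine mice (red) and saline mice (blue), sorted by the saline value. Filled points passed limma's test; Gabra5 lies lowest at -0.62 in saline mice, and Gabrb2 is the highest of the saline values at 0.20.

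Markers of cell types differed between the strains too. Of 9 oligodendrocyte markers 5 were lower in DBA/2J in both contrasts, Mobp most (-0.82 in saline mice), beside 10.8% of all genes lower in DBA/2J nicotine mice and 19.4% in DBA/2J saline mice. The mean deviation of these 9 markers ran from -0.29 to 0.10 in DBA/2J saline mice, against -0.18 to 0.45 in C57BL/6J saline mice. Among nicotine mice it ran from -0.48 to 0.14 in DBA/2J, against -0.30 to 0.36 in C57BL/6J. Of 14 striatal projection neuron markers 6 were lower in DBA/2J saline mice and 3 in DBA/2J nicotine mice, Drd2 in both (-0.55 in nicotine mice and -0.71 in saline mice), beside the same 19.4% (saline) and 10.8% (nicotine) of all genes. None was called higher, but 4 differences lay above 0 in nicotine mice and 2 in saline mice. Drd1 (0.07 and 0.08) and Rasd2 (0.13 and 0.01) lay above 0 in both. The deviation of this list ran from -0.45 to 0.12 in DBA/2J saline mice, against -0.59 to 0.37 in C57BL/6J saline mice, and from -0.23 to 0.31 in DBA/2J nicotine mice, against -0.03 to 0.41 in C57BL/6J nicotine mice. The part of these shifts in the receptor differences was not tested. In tissue, fewer cells of a type and less message per cell cannot be told apart.

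The next marker counts stand beside 19.4% of all genes lower and 12.4% higher in DBA/2J saline mice. In nicotine mice these shares were 10.8% lower and 15.4% higher. In 1 direction in both contrasts 17.6% of all genes were called. Of 9 cortical excitatory neuron markers 1 was lower and 1 higher in DBA/2J saline mice. The list deviation ran from -0.88 to 0.45 in DBA/2J saline mice, against -0.62 to 0.61 in C57BL/6J saline mice. In nicotine mice 1 was higher and none lower, and the deviation ran from -1.07 to 0.34 in DBA/2J, against -0.40 to 0.37 in C57BL/6J. With this deviation as a covariate in the fit, 3 of 5 members were called in each strain contrast. Of all 9596 genes, 3271 were called in saline mice and 2733 in nicotine mice, against 3052 and 2510 without it. The mean deviation was 0.02 in DBA/2J and 0.09 in C57BL/6J saline mice, and -0.09 and -0.02 in nicotine mice. A covariate so alike in both strains could move a strain contrast little. No other marker list was used as a covariate, so the part of cell composition was not tested. Of 5 interneuron markers 2 were higher in DBA/2J in both contrasts, Pvalb by 0.44 and Chat by 0.30 in saline mice. Calb2 (-0.40, limma adjusted p = 0.092), Sst (-0.24, limma adjusted p = 0.092) and Vip (0.05, limma adjusted p = 0.85) were not called there, and the list median was 0.05. Of 6 astrocyte markers 2 were higher and 1 lower in DBA/2J in both contrasts, in saline mice Gfap by 0.46, Gja1 by 0.17 and Aldoc by -0.41. Spink8, of the hippocampus and septum list, was higher in DBA/2J by 0.67 in nicotine mice and by 0.58 in saline mice (limma adjusted p = 1.8e-07 and 1.3e-06). Its signal was low, with a mean log2 value of 6.61 beside array medians from 6.52 to 6.63. Trpc6, of the same list, was lower in DBA/2J nicotine mice (-0.24, limma adjusted p = 0.035) and not called in saline mice (-0.20, limma adjusted p = 0.061). Zic1, the last of the 3 tested markers of that list, was not called (0.31 in nicotine mice and 0.002 in saline mice). No defining marker of these lists was at 0, since array values have no true zero.

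Nicotine itself was compared with saline within each strain and pump condition. In withdrawal DBA/2J mice 0 of 9596 genes (0%) passed limma's adjusted test, and the same count of 0 (0%) held for chronic DBA/2J, withdrawal C57BL/6J and chronic C57BL/6J mice. At an unadjusted limma p under 0.05 there were 523 genes (5.45%) in withdrawal DBA/2J mice, 768 (8%) in chronic DBA/2J mice, 287 (2.99%) in withdrawal C57BL/6J mice and 449 (4.68%) in chronic C57BL/6J mice. The members' differences lay between -0.09 and 0.23, and 2 of 20 reached that unadjusted level. Both were in chronic DBA/2J mice, and the values below are given as values only.

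Gabrg3 had the largest difference. Its log2 value was 12.22 at the lowest, 12.56 at the median and 12.91 at the highest in chronic DBA/2J nicotine mice, against 12.04, 12.31 and 12.65 in chronic DBA/2J saline mice (n = 6 each). The groups overlapped over most of their range. The difference was 0.23 (95% interval 0.00055 to 0.45, limma adjusted p = 0.62). Gabbr1 ran over 13.26, 13.30 and 13.44 in chronic DBA/2J nicotine mice, against 13.13, 13.21 and 13.31 in chronic DBA/2J saline mice. Its difference was 0.10 (interval 0.0061 to 0.20, limma adjusted p = 0.61).

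Marker lists had shifts of their own between the same 12 chronic DBA/2J mice, with no marker called. All 14 striatal projection neuron markers were above 0, with a median difference of 0.22, and the list deviation ran from -0.22 to 0.31 in nicotine mice, against -0.45 to 0.03 in saline mice. Of 9 cortical excitatory neuron markers 8 were below 0, with a median of -0.41, and the deviation ran from -1.07 to 0.34 in nicotine mice, against -0.39 to 0.33 in saline mice. All 9 oligodendrocyte markers were below 0, with a median of -0.19 and a deviation from -0.48 to -0.01 in nicotine mice, against -0.23 to 0.09 in saline mice. The median over all genes was 0.02. The part of these shifts in the Gabrg3 and Gabbr1 values was not tested.

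In withdrawal DBA/2J mice Gabbr1 was 13.21, 13.22, 13.23, 13.37 and 13.39 in the 5 nicotine mice, against a lowest, median and highest of 13.18, 13.23 and 13.27 in saline mice. Of the nicotine mice 3 lay among the saline mice and 2 lay above them, a difference of 0.06 (interval -0.05 to 0.16, limma adjusted p = 0.88). In chronic C57BL/6J mice the 5 nicotine values were 13.33, 13.42, 13.43, 13.44 and 13.53, against 13.21, 13.52 and 13.62 in saline mice, a difference of -0.07 (interval -0.17 to 0.04, limma adjusted p = 0.99). In withdrawal C57BL/6J mice the Gabbr1 difference was 0.04 (interval -0.06 to 0.13).

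The strain difference of the chronic nicotine effect, DBA/2J minus C57BL/6J, was 0.17 for Gabbr1 (SE 0.07, limma adjusted p = 0.48) and 0.26 for Gabrg3 (SE 0.16, limma adjusted p = 0.56). It rests on the same chronic mice as the values above. For withdrawal the Gabbr1 value was 0.02 (SE 0.07) and the largest member value was that of Gabra3, at 0.22 (SE 0.21, limma adjusted p = 0.80). Of all genes 0 (0%) passed in either test, while 676 (7.04%) for withdrawal and 955 (9.95%) for chronic nicotine had an unadjusted p under 0.05.

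**Figure D3:**
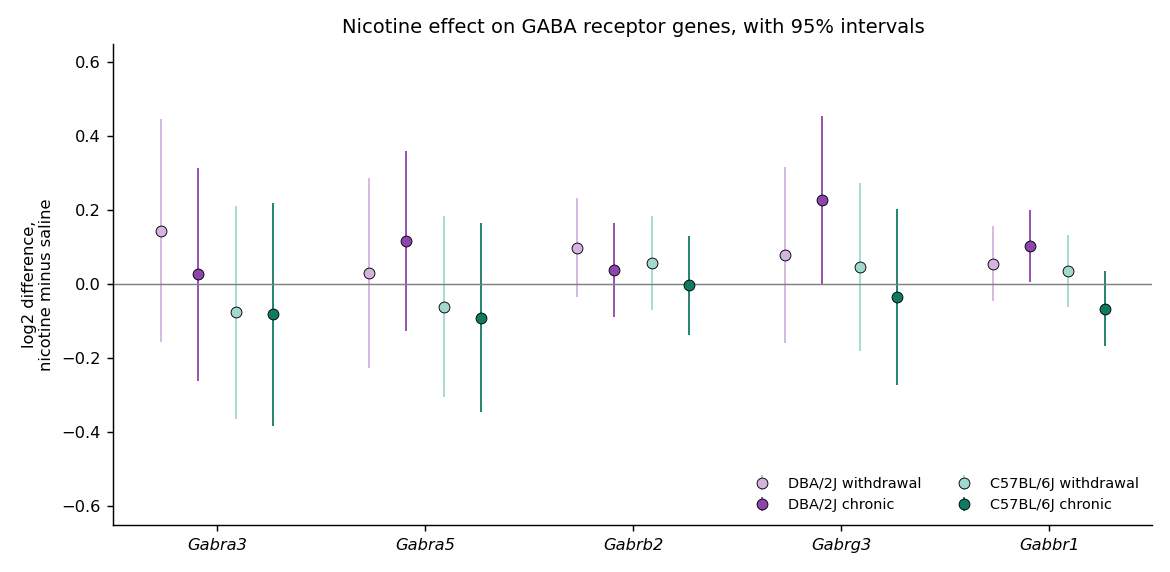
Points are log2 differences between nicotine and saline mice for the 5 members with values per array, with 95% intervals, in the 4 combinations of strain and pump condition. All 20 points lie between -0.09 and 0.23, and 2 intervals, those of Gabrg3 and Gabbr1 in chronic DBA/2J mice, lie above 0 before adjustment.

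The other members moved less relative to their spread. Gabra5 differed between nicotine and saline by 0.03 (95% interval -0.23 to 0.29) in withdrawal DBA/2J, by 0.12 (-0.13 to 0.36) in chronic DBA/2J, by -0.06 (-0.30 to 0.18) in withdrawal C57BL/6J and by -0.09 (-0.35 to 0.17) in chronic C57BL/6J mice. For Gabrb2 the intervals were narrower, from -0.03 to 0.23 in withdrawal DBA/2J, -0.09 to 0.17 in chronic DBA/2J, -0.07 to 0.19 in withdrawal C57BL/6J and -0.14 to 0.13 in chronic C57BL/6J mice. For Gabra3 they reached from -0.38 to 0.45 over the 4 comparisons. None of these intervals left out 0, and none shows that the groups are alike.

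Removal of the pump was read by setting withdrawal against chronic mice of 1 strain and drug. Again 0 of 9596 genes (0%) passed in nicotine DBA/2J, nicotine C57BL/6J, saline DBA/2J and saline C57BL/6J mice. The counts at an unadjusted limma p under 0.05 were 361 (3.76%) and 749 (7.81%) for the nicotine mice of DBA/2J and C57BL/6J, and 389 (4.05%) and 359 (3.74%) for the saline mice of DBA/2J and C57BL/6J. Of 20 member values 1 reached that level. The lowest, median and highest Gabbr1 values were 13.46, 13.52 and 13.66 in withdrawal C57BL/6J nicotine mice, against 13.33, 13.42, 13.43, 13.44 and 13.53 in the 5 chronic C57BL/6J nicotine mice. The groups overlapped in part, with a difference of 0.11 (SE 0.05, limma adjusted p = 0.62). Gabrg3 had a difference of -0.21 both in nicotine DBA/2J mice (SE 0.12) and in saline C57BL/6J mice (SE 0.11), with limma adjusted p of 1.00 in each.

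Gabra2 encodes the alpha2 subunit, which is abundant in accumbens spiny neurons and sits at their synapses. Its level in each strain was not analysed here, since the S-score sets a nicotine mouse against the saline mice of its own strain and pump condition. The median S-score over all 25801 genes lay between -0.07 and 0.04 in the 6 comparisons. In withdrawal DBA/2J mice the 5 Gabra2 scores were -2.88, 0.42, 1.51, 1.60 and 1.66. In chronic DBA/2J mice they ran from -0.32 over a median of 2.60 to 3.64, with 5 of 6 mice above 0. In both DBA/2J groups all but 1 mouse scored above 0, but the mice of a group share their saline mice, so these signs are not independent. In withdrawal C57BL/6J mice they ran from -3.70 over a median of -1.02 to 2.81, with 2 of 6 above 0. In chronic C57BL/6J mice the 5 scores were -2.56, -0.63, 0.41, 1.49 and 2.09. The mice of each group thus stood on both sides of 0.

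The mean Gabra2 score was 0.46 ± 1.94 (SD, n = 5) in withdrawal DBA/2J mice and 1.92 ± 1.58 (SD, n = 6) in chronic DBA/2J mice. It was -0.65 ± 2.47 (SD, n = 6) in withdrawal C57BL/6J mice and 0.16 ± 1.84 (SD, n = 5) in chronic C57BL/6J mice. The error was widened for the number of saline mice. These mice have no scores of their own, so the scatter of the nicotine scores stood in for theirs. The 95% interval in chronic DBA/2J mice was then -0.32 to 4.15 (limma adjusted p = 0.84), and the other 3 intervals spanned 0 as well. The strain difference of the score, DBA/2J minus C57BL/6J, was 1.11 (interval -2.13 to 4.35, limma adjusted p = 0.92) for withdrawal and 1.76 (interval -1.48 to 5.00, limma adjusted p = 0.78) for chronic nicotine. Of 25801 genes 0 (0%) passed in any of the 6 score comparisons, while an unadjusted p under 0.05 was reached by 1663 (6.45%) in withdrawal DBA/2J, 1455 (5.64%) in chronic DBA/2J, 761 (2.95%) in withdrawal C57BL/6J and 807 (3.13%) in chronic C57BL/6J mice.

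**Figure D4:**
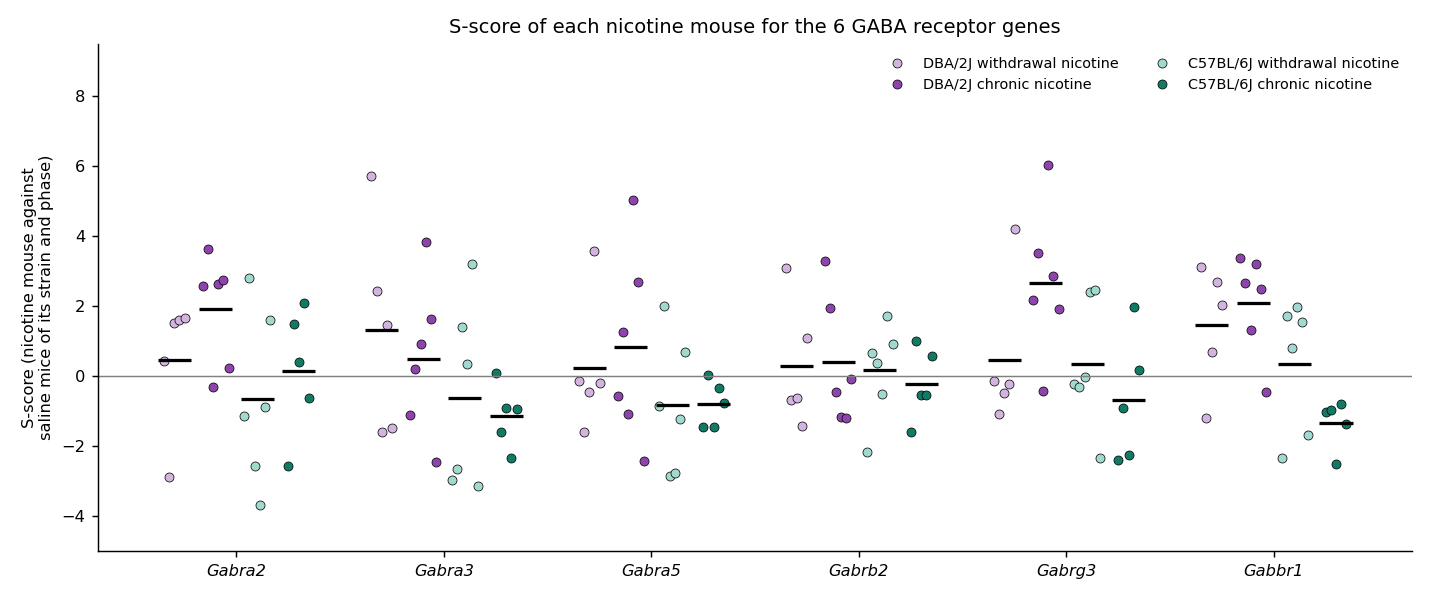
Each point is the S-score of 1 nicotine mouse and each bar a group mean, for the 6 members and the 4 nicotine groups. The Gabra2 means lie between -0.65 and 1.92, and the points of every Gabra2 group fall on both sides of 0.

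Among the scores of the other members, which come from the same arrays as their log2 values, Gabrg3 and Gabbr1 in chronic DBA/2J mice stood highest. Gabrg3 had a mean of 2.68 ± 2.12 (SD, n = 6) and Gabbr1 of 2.10 ± 1.44 (SD, n = 6), each with 5 of 6 mice above 0 (limma adjusted p = 0.84 for both). In chronic C57BL/6J mice all 5 Gabbr1 scores were below 0, with a mean of -1.34 ± 0.70 (SD, n = 5; limma adjusted p = 1.00). All scores of a group share the same saline mice, so their signs are not independent, and the SD leaves out the error of those saline mice. The strain difference of the chronic score was 3.44 for Gabbr1 (SE 1.20) and 3.36 for Gabrg3 (SE 1.55), neither of which was called (limma adjusted p = 0.72 for both). Over all genes the unadjusted level of 0.05 was reached in this comparison by 6.8%, and by 7.11% in that for withdrawal. The score and the log2 value of a mouse did not always go together. Among withdrawal DBA/2J nicotine mice, mouse 1 had the lowest Gabbr1 log2 value (13.21) and the highest score (3.12). Chronic DBA/2J nicotine mice 4 and 6 both had a Gabbr1 value of 13.28, with scores of 3.21 and -0.45.

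The scores covered all 59 GABA genes, also those without values per array, and none of the 59 passed in any of the 6 comparisons. Their median score was 0.51 in withdrawal DBA/2J mice, with 47 of 59 above 0, beside a median of 0.03 and 52.3% above 0 over all 25801 genes. In chronic DBA/2J mice it was 0.58, with 38 above 0, beside -0.07 and 44.7% over all genes. In withdrawal C57BL/6J mice it was -0.02, with 28 above 0, beside -0.01 and 48.8%, and in chronic C57BL/6J mice -0.24, with 20 above 0, beside 0.01 and 50.5%. No test of the list as a whole was run. The 25801 genes had no filter on dim genes, and a background of like signal was not used for the scores. In log2 values the median nicotine difference in chronic DBA/2J mice was -0.0013 over 16253 unfiltered genes. It was 0.04 over the 5602 genes above the 75th percentile. Of the tested genes of these lists, Clptm1, which holds back the transport of GABA-A receptors to the surface, had the smallest p in log2 values over the nicotine comparisons. Its strain difference of the chronic effect was 0.23 (SE 0.07, limma adjusted p = 0.48).

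The members did not vary together as 1 set. Over the 46 arrays, after removal of the group means, the correlation of Gabra5 with Gabrb2 was -0.50 and that of Gabrg3 with Gabbr1 was 0.43, and the other 8 pairs lay between -0.17 and 0.18. The genes most like each member by this measure, among 9595, were Nell2 (r = 0.78), Tmem74 (0.77) and Efcab6 (0.77) for Gabra5, and Inpp4b (0.72), Adarb1 (0.71) and Epb41l3 (0.70) for Gabrb2. For Gabbr1 they were Car11 (0.86), Plppr3 (0.86) and Pde2a (0.85), for Gabrg3 Trpc7 (0.85), Slc24a4 (0.84) and Cpne2 (0.82), and for Gabra3 Atp6v1a (0.85), Atp6ap1 (0.79) and Tmem9b (0.78). These values are descriptions over arrays that also share their dissection and scaling.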

How the data were processed

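Arrays of 46 mice were analysed, each mouse being 1 replicate as titled in the labels. The deposited log2 values, 1 per array and transcript cluster (48088 features, 6732 of them controls), had been scaled between arrays by the authors, with array medians from 6.52 to 6.63; the summarisation method is not given in the sources used here. The S-scores, as deposited by the authors per the file headers, give for each of 22 nicotine mice a signed standardised score against the saline mice of its group; the software is not given in the sources used here. All columns were mapped to samples.

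Features with 1 symbol were kept, 1 per gene (the highest mean), and a filter on dim genes asked for a value above the median (50th percentile) of the non-control features on 5 or more arrays, which kept 9596 genes and dropped 6657. Log2 values were fitted with limma 3.58.1 in R 4.3.3 (with version 1.17.8 of data.table), with a mean for each of the 8 groups (degrees of freedom 38 residual, 4.14 prior), in 12 contrasts, two-sided, with Benjamini-Hochberg adjustment over all genes of a contrast and a threshold of 0.05. S-scores were fitted with limma over 25801 genes, with the error widened for the number of saline mice. The scatter of the nicotine scores stood in for that of the saline mice, which was not measured on this scale. The fits were tested on simulated data. Plots used matplotlib 3.10.9 in Python 3.11.15.

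The members and lists were chosen with earlier results of these data known. The genes named are every member, genes of the GABA lists past the threshold (some are not reported here), the list gene with the smallest p over the nicotine comparisons, and the 3 genes most like each member; the cell type markers were named after their values were seen. Alternatives were other filters and scalings, array weights, a covariate, smaller fits, mouse number as a block, scores against 0 and each mouse left out. The number of arrays limits the precision; no batch or date is given, so none was tested.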

Additional observations from a re-analysis of the deposited data

Results flagged for a closer look

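In groups of 5 or 6 mice, the highest or lowest value of a member was set against the nearest other value, as a share of the whole range of the group. Of 44 such groups 4 exceeded the 95% limit of Dixon's test, where chance gives about 1 in 20. In withdrawal DBA/2J nicotine mice, mouse 4 had a Gabra5 value of 12.92 on the log2 scale with the next at 12.38, mouse 5 had a Gabrg3 value of 12.65 with the next at 12.33, and mouse 2 had a Gabra2 S-score of -2.88 with the next at 0.42. In chronic C57BL/6J saline mice, mouse 3 had a Gabbr1 value of 13.21 with the next at 13.50. The 4 values came from 4 different mice.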

How the results depend on the processing

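The strain differences of Gabra5, Gabbr1 and Gabrb2 kept their direction and stayed past the threshold under all 8 alternative fits. The same held with each mouse left out in turn. In each case 3 members were called in both strain contrasts, and 0 in the other 10. With 1 mouse left out, 2833 to 3338 of all genes were called in saline mice and 2278 to 2533 in nicotine mice. With the arrays centred on their medians, 666 genes were higher and 2665 lower in DBA/2J saline mice, against 1193 higher and 1859 lower in the main fit. The counts of 0 genes over all genes became 3 for nicotine in withdrawal DBA/2J mice when its 2 groups were fitted alone, 2 for withdrawal against chronic C57BL/6J nicotine mice with array weights, and up to 5 (chronic) and 1 (withdrawal) for the strain difference of the nicotine effect with 1 mouse left out. Mouse numbers gave no general sign of pairing: over 155 pairs of arrays with 1 number in different groups the median r was -0.002, with 40 above 0.1. Over 770 pairs with different numbers it was -0.003, with 220 above 0.1. With mouse number as a replicate block 2505 genes (nicotine) and 3072 genes (saline) differed between strains, and the members called stayed at 3 and 3. The block gave Gabra2 scores of 0.52 in withdrawal DBA/2J and 0.22 in chronic C57BL/6J mice, against 0.46 and 0.16 without it, left the other 2 group scores (1.92 and -0.65) as they were, and changed no call. Each member had 1 feature, so that the fit of each feature by itself gave no value.

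With 1 nicotine mouse left out the Gabra2 score ranged from 0.16 to 1.30 in withdrawal DBA/2J, 1.57 to 2.37 in chronic DBA/2J, -1.34 to -0.04 in withdrawal C57BL/6J and -0.32 to 0.84 in chronic C57BL/6J mice, and its strain difference from 0.50 to 1.94 (withdrawal) and 1.08 to 2.24 (chronic); none was called.

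Small values that were not called in any fit changed sign; the cause was not tested. With quantile normalization these were, for nicotine minus saline, Gabrb2 0.023 and Gabrg3 0.0043 (chronic C57BL/6J), Gabra3 -0.015 (chronic DBA/2J), and Gabrb2 -0.021, Gabrg3 -0.0037 and Gabbr1 -0.020 (withdrawal C57BL/6J), for its chronic strain difference Gabrb2 -0.020, and for withdrawal minus chronic DBA/2J saline mice Gabrb2 -0.086 and Gabbr1 -0.059. With array weights they were Gabrg3 -0.0070 (strain, nicotine), Gabrb2 0.014 (nicotine, chronic C57BL/6J), Gabra5 -0.016 (nicotine, withdrawal DBA/2J), Gabrg3 -0.020 and Gabbr1 -0.011 (strain difference, withdrawal), Gabbr1 -0.030 (pump removal, C57BL/6J saline) and Gabrg3 0.0062 (pump removal, DBA/2J saline). With the cortical covariate they were Gabrb2 0.00063 (nicotine, chronic C57BL/6J), Gabra5 0.0098 and Gabrg3 -0.0064 (withdrawal C57BL/6J), Gabra5 -0.014 (withdrawal DBA/2J) and -0.024 (strain difference, withdrawal), Gabra3 -0.073 and Gabra5 -0.067 (pump removal, DBA/2J nicotine) and Gabrb2 -0.0031 (DBA/2J saline). Median centring gave Gabbr1 -0.0087 (pump removal, C57BL/6J saline), and the replicate block gave Gabrb2 0.0050 (nicotine, chronic C57BL/6J).

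With 1 mouse left out, nicotine minus saline ranged from -0.025 to 0.034 for Gabrb2 and -0.10 to 0.032 for Gabrg3 in chronic C57BL/6J, -0.041 to 0.11 for Gabra3 and -0.0080 to 0.085 for Gabrb2 in chronic DBA/2J, -0.11 to 0.0053 for Gabra5 and -0.012 to 0.11 for Gabrg3 in withdrawal C57BL/6J, and -0.088 to 0.098 for Gabra5 in withdrawal DBA/2J mice. Its strain difference ranged from -0.0054 to 0.088 for Gabrb2 (chronic) and, for withdrawal, -0.027 to 0.16 for Gabra5, -0.041 to 0.091 for Gabrg3 and -0.0053 to 0.045 for Gabbr1. The strain difference of Gabrg3 in nicotine mice ranged from -0.0026 to 0.068. Withdrawal minus chronic ranged, in nicotine mice, from -0.12 to 0.024 for Gabra3 in C57BL/6J, -0.065 to 0.11 for Gabra3 and -0.064 to 0.16 for Gabra5 in DBA/2J, and, in saline mice, from -0.14 to 0.031 for Gabra3 and -0.049 to 0.032 for Gabbr1 in C57BL/6J, and -0.030 to 0.031 for Gabrb2, -0.12 to 0.0071 for Gabrg3 and -0.0063 to 0.030 for Gabbr1 in DBA/2J.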
